A study of Arabidopsis thaliana with 32 samples.

Results

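The question addressed here is where the early transcript response to light differs between seedlings with abundant HY5 transcript and the hy5 mutant. The measure was a difference of differences. It took the change between darkness and 1.5 h of light in seedlings with abundant HY5 transcript, minus the same change in the hy5 mutant. This light by genotype interaction was computed for every gene of the table, 19685 genes, from 12 of the 32 libraries of the study, 3 in each of 4 groups. The first genotype, OX, is labelled 35S:FLASH-HY5 in hy5/hy5 plants and carries HY5 under the viral 35S promoter, which is active in most tissues; the labels list no modification of HY5, although the construct name places FLASH before it. It is set against the hy5/hy5 mutant itself, so both share the hy5 mutation, whose allele the labels do not name, and the ecotype Columbia. Each genotype was sampled after 3 days in darkness that followed 1 h of white light for germination, either in the dark under green light or after 1.5 h of simulated white light of 100 µmol per square metre per second from blue, red and far-red lamps at 21 °C. Each library came from about 40 whole seedlings. The labels do not say whether OX is 1 transgenic line or several, nor that replicates were grown separately, so p-values measure only the spread between these samples, which may be technical. The wild type Columbia, Col, with 3 libraries at the same 2 times, stands beside the results as a further genotype.

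HY5 is a bZIP transcription factor that binds DNA at sequences with an ACGT core, of which the G-box CACGTG is the best known. In darkness the HY5 protein is removed through the COP1 ubiquitin ligase, and in light it accumulates and takes part in the switch of the seedling from elongation in the soil to opening, greening and making of protective pigments. HY5 has no activation domain of its own and is known to work with partners, among them B-box proteins.

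Depth ran from 7499581 to 19851702 reads per library (median 12594486 over the 12), and dark OX was the shallowest group at 9001190 reads on average. Levels are given in CPM, read counts that the authors scaled by library size before depositing them, and a floor of 3 reads corresponds to 0.148 to 0.394 CPM, which covers counting error only. Differences are on the scale log2(CPM + 1), which understates changes of genes with a low level, and folds are ratios of mean CPM. A gene was called when its p-value, from limma and adjusted by Benjamini-Hochberg over all genes, was below 0.05. Replicates of a group correlated at 0.986 to 0.994 across genes. The share of reads in mitochondrial-encoded genes was 0.316% in OX at 1.5 h and 0.432% in dark OX, against 0.123% in hy5 at 1.5 h and 0.125% in dark hy5, and its part in the results was not tested.

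The interaction was called for 2110 genes, 10.7% of those tested. For 1178 of them, 5.98% of all genes, the light response of OX lay above that of hy5, by a median of 0.88 on the log2 scale, and for 932, or 4.73%, it lay below, by a median of 0.71. On the log2(CPM + 1) scale the change reached 2-fold in 461 of the higher and 185 of the lower genes. The median over all genes was -0.00010. In bulk RNA from whole seedlings, fewer cells of a type and less RNA per cell cannot be told apart. Of the light responses, 9090 genes, or 46.2%, were called in OX and 6308, or 32%, in hy5. Fitted on the compared groups alone, 7258 were called in OX and 7310 in hy5. Which genotype had more calls thus depended on the fit, and the splits that follow use the fit over all 32 libraries. Most higher genes rose in OX: 604 rose there with no call in hy5, 412 rose in both genotypes, and 59 rose in OX and fell in hy5. Among lower genes 322 fell in OX with no call in hy5, 262 fell in both, 166 rose in both and 38 fell in OX and rose in hy5. These splits are parts of the same contrast and describe it.

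**Figure D1:**
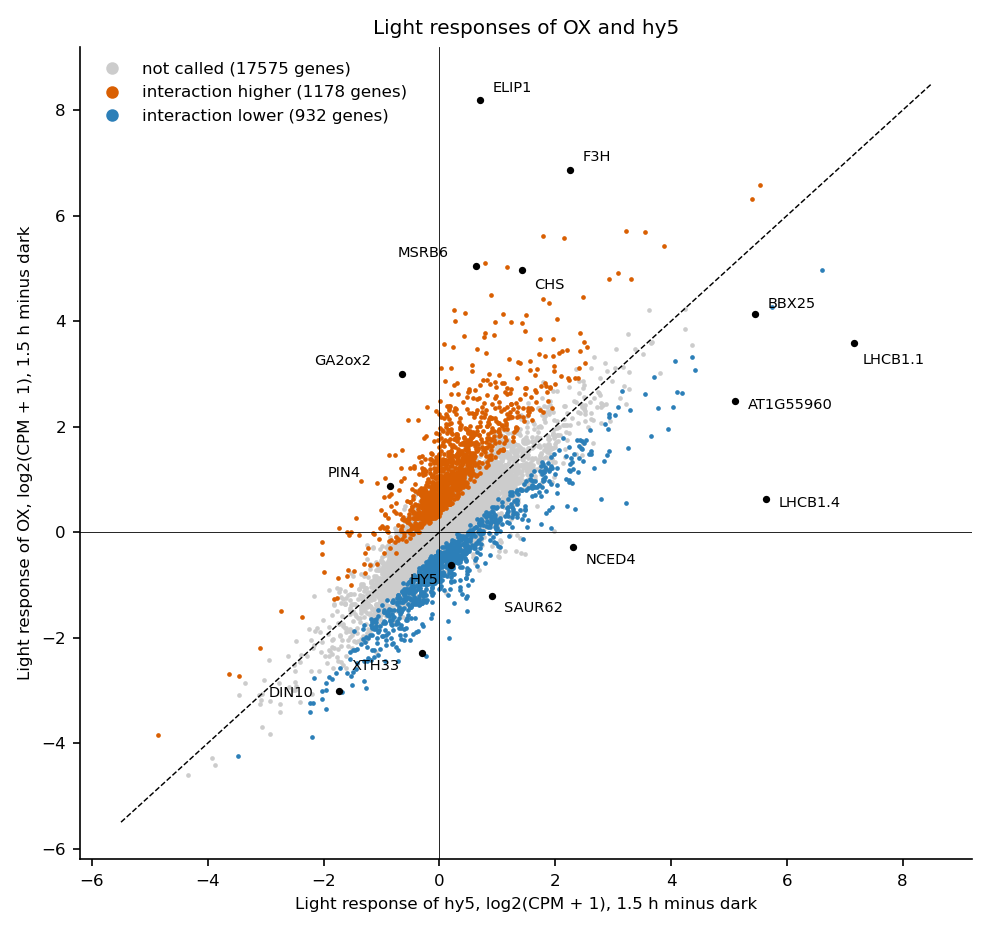
Light response of every gene in OX (vertical axis) against that in hy5 (horizontal axis), each as 1.5 h minus dark on log2(CPM + 1), with a dashed line where both are equal. The 1178 orange genes lie above the line and the 932 blue genes below it, with ELIP1, F3H, MSRB6 and GA2ox2 far above and LHCB1.4, LHCB1.1 and AT1G55960 far below.

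The interaction can also be read as the difference between OX and hy5 at each time. The level in OX and hy5 differed for 4966 genes at 1.5 h, or 25.2%, and for 2653 genes in the dark, or 13.5%. Of the higher genes 767, or 65.1%, were higher in OX than in hy5 at 1.5 h with no call in the dark. Of the lower genes 575, or 61.7%, were lower in OX at 1.5 h with no call in the dark. For 194 lower genes, or 20.8%, OX was already higher in the dark and no difference was called at 1.5 h. That group held 128, 130 and 132 genes without dark hy5 replicate 1, dark OX replicate 2 and dark hy5 replicate 2. Its counterpart, lower in the dark in OX and not called at 1.5 h, held 142 higher genes, but 75 to 219 when single libraries were left out (219 without dark OX replicate 1, 75 without dark OX replicate 2, 83 without dark hy5 replicate 2 and 94 without dark hy5 replicate 1). The count of dark differences itself fell to 1496, 1589 and 1727 without dark OX replicate 2, dark hy5 replicate 1 and dark hy5 replicate 2.

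HY5 transcript, which checks the labels, was at 10357, 8198 and 8969 CPM in OX at 1.5 h and at 16907, 13613 and 12317 CPM in dark OX. In hy5 it was at 25.2, 25.1 and 25.1 CPM at 1.5 h and at 21.4, 19.4 and 24.4 CPM in the dark. The groups of OX and hy5 do not overlap at either time, and the OX libraries match their label. In Col it was at 208, 207 and 232 CPM at 1.5 h and at 21.7, 22.0 and 30 CPM in the dark. The light response of HY5 transcript was -0.63 ± 0.13 (SE) in OX, where the 35S promoter drives it, and 3.1 ± 0.13 in Col. The difference of these responses was -3.73 (adjusted p = 9.0e-15 by limma). The interaction measures light acting on seedlings whose HY5 transcript was above that of Col at both times.

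Promoters of 6 genes are shown to give the sequence around the G-box that HY5 is known for. The 4 higher genes were chosen because they hold it and are among the 15 highest. MSRB6, KAT5, MYB75, 4CL3, ELIP2, GA2ox1, AT2G23910, GA2ox2 and FLS1, which rank above CHS, MYB12 and CHIL, hold none in this window. The 2 antenna genes were chosen as having the lowest interactions. Each is the 250 bases before the annotated gene start in RefSeq's TAIR10.1 assembly, read 5′ to 3′ on the gene's strand, with the G-box CACGTG and the I-box core GATAAG or its complement CTTATC in capitals. The submitters' processing notes name TAIR10, and the files give no coordinates, so positions come from RefSeq alone. ELIP1 lies on the minus strand (chr3:8085670-8085919), CHIL (chr5:1563036-1563285), MYB12 (chr2:19476076-19476325) and CHS (chr5:4488226-4488475) on the plus strand, and all 4 had a higher response in OX. LHCB1.1 (chr1:10475970-10476219, minus strand) and LHCB1.4 (chr2:14524357-14524606, plus strand) had a lower one.
ELIP1: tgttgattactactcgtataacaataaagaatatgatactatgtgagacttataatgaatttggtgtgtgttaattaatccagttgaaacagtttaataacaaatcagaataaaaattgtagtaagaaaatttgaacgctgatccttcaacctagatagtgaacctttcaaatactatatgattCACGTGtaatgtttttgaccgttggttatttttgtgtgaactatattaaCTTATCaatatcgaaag
CHIL: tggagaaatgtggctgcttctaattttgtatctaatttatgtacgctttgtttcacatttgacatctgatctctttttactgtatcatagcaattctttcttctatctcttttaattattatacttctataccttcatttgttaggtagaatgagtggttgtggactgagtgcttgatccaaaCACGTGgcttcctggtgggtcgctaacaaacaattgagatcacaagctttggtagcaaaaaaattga
MYB12: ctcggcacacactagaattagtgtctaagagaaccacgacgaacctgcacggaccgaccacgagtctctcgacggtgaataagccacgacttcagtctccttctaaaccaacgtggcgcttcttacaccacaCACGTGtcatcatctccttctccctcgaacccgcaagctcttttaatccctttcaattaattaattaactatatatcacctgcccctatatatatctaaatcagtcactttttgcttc
CHS: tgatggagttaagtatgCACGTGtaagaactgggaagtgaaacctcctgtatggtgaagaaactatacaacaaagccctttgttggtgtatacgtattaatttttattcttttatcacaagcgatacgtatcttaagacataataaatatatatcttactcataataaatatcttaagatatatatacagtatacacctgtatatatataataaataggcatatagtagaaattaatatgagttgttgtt
LHCB1.1: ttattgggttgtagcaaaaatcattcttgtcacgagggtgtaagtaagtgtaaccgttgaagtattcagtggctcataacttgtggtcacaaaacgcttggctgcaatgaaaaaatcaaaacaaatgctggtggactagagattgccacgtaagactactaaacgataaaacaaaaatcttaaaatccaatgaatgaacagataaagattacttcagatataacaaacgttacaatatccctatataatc
LHCB1.4: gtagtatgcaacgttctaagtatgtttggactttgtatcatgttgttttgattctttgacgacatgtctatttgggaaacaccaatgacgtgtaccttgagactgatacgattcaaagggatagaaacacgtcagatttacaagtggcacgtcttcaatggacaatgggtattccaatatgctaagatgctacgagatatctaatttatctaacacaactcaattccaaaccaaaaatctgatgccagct

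The G-box begins 66 bases before the start in ELIP1, 67 in CHIL, 118 in MYB12 and 233 in CHS, and neither antenna promoter holds it in this window. Among the 15 genes with the largest higher interaction 5 held CACGTG in the window (these 4 and F3H), and among the 15 lowest 2 did. Over all 19381 genes with a window, 7.59% held it, against 9.91% of 1171 higher and 8.53% of 926 lower genes. The shorter core ACGT, searched on both strands and contained in the G-box, was in 51.8% of higher and 44.7% of lower genes, against 44.7% of all. GATAAG, searched on both strands, was in 9.39% of higher and 18.7% of lower genes, against 12.5% of all. These shares describe letters in a window and were not tested.

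Interaction counts of the 23 lists stand beside shares over all genes of 5.98% higher and 4.73% lower. Genes of photoprotection and DNA photorepair had the highest median interaction of the lists. Of 11 measured members 8 were higher in the interaction and none lower, with a median of 1.87. ELIP1, an early light-induced protein that binds chlorophyll while the plastid greens, was at 1635, 1365 and 1535 CPM in OX at 1.5 h and at 4.60, 2.76 and 5.46 CPM in dark OX. In hy5 ELIP1 was at 5.59, 6.95 and 6.13 CPM at 1.5 h and at 2.84, 3.36 and 4.14 CPM in the dark. The dark libraries of the genotypes overlap, while the light libraries are far apart: OX was 354-fold above its dark level and hy5 1.8-fold. The interaction of 7.49 ± 0.49 (SE) was the highest of all genes (adjusted p = 3.6e-12), and leaving out single libraries kept it between 7.27 and 7.66. Col reached 1914, 1365 and 1401 CPM, and the response of OX was not called different from that of Col (0.63, adjusted p = 0.56). In the authors' deposited table the log2 ratio of OX over hy5 for ELIP1 is 7.92 in light and 0.31 in the dark.

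ELIP2, its paralog, differed from ELIP1 in the dark. Its level was 2652, 1837 and 1631 CPM in OX at 1.5 h and 50.6, 30 and 41.3 CPM in dark OX, against 40.0, 46.8 and 42.6 CPM in hy5 at 1.5 h and 11.7, 10.8 and 12.7 CPM in dark hy5. Dark OX already lay above dark hy5 without overlap (1.68, adjusted p = 1.4e-05), at about the level hy5 reached after light. The interaction of ELIP2 was 3.82 ± 0.34. MSRB6, a methionine sulfoxide reductase that repairs oxidised protein, was at 145, 146 and 107 CPM in OX at 1.5 h and 2.5 to 3.5 CPM in dark OX, against 1.43 to 3.62 CPM in hy5 at 1.5 h and 0.912 to 1.46 CPM in dark hy5. Its light and dark libraries overlap in hy5 and lie far apart in OX, with an interaction of 4.41. CRY3, a DASH-type cryptochrome of the DNA photolyase family, was at 205, 207 and 237 CPM in OX at 1.5 h and 11.7 to 14.2 CPM in dark OX, against 14.5 to 15.7 CPM in hy5 at 1.5 h and 4.56 to 8.60 CPM in dark hy5. PSBS, the sensor protein of non-photochemical quenching, differed less: 1136 to 1273 CPM in OX at 1.5 h and 216 to 284 CPM in dark OX, against 510 to 630 CPM in hy5 at 1.5 h and 318 to 333 CPM in dark hy5. OX thus lay above hy5 in light and below it in the dark (1.08 and -0.37, adjusted p = 2.9e-08 and 0.040). GPX7, a glutathione peroxidase, and SIG5, a sigma factor of the plastid RNA polymerase, were also higher, by 3.08 and 1.87. PHR1, a photolyase, is counted among the 8, but dark hy5 held 0 to 0.538 CPM and its direction depends on the scale: in the authors' deposited table its log2 ratio of OX over hy5 is 2.48 in light and 2.95 in the dark, which gives the opposite sign. The photolyase UVR3 (-0.22), OHP1 (-0.07) and VDE1 (-0.31) were not called.

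Flavonoids are screening pigments made from phenylalanine. Of 17 measured enzymes of the pathway 13 were higher in the interaction and none lower, with a median of 1.70, and the count stayed at 13 whichever library was left out. CHS, chalcone synthase, which commits carbon to flavonoids, was at 358, 341 and 387 CPM in OX at 1.5 h and at 11.3, 8.54 and 12.3 CPM in dark OX. In hy5 CHS was at 10.9, 11.7 and 5.73 CPM at 1.5 h and at 2.99, 2.91 and 2.40 CPM in the dark. Light lay above dark in both genotypes and OX above hy5 at both times without overlap, while dark OX and lit hy5 overlapped. The difference between light and dark was 33.8-fold in OX and 3.41-fold in hy5 (interaction 3.55 ± 0.34, adjusted p = 5.5e-09). F3H, flavanone 3-hydroxylase, had the largest value of the list, 4.61 ± 0.27: 395, 335 and 369 CPM in OX at 1.5 h and 1.31 to 2.80 CPM in dark OX, against 6.23 to 8.92 CPM in hy5 at 1.5 h and 0.663 to 1.09 CPM in dark hy5. The response of F3H was 6.88 in OX and 6.92 in Col. FLS1, flavonol synthase, 4CL3, a 4-coumarate:CoA ligase, and CHIL, a chalcone isomerase-like protein, followed with 3.6, 3.87 and 3.43. The entry enzymes PAL1, PAL2 and C4H were higher by 1.52, 1.31 and 1.60. The members not called were F3'H (0.50) and the late anthocyanin enzymes DFR (-0.02), LDOX (0.03) and UGT75C1 (0.40). In the authors' deposited table the log2 ratio of OX over hy5 for LDOX is 0.0 in the dark and 1.93 in light. For UGT75C1 it is -1.80 and 0.42, and for DFR it is similar at both times. The sizes for LDOX and UGT75C1 thus depend on the scale, and the missing calls do not show equal responses. With genes under a mean of 5 CPM left out, 13 of the 17 enzymes were tested and 12 called higher.

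Of 11 measured regulators of the pathway 7 were higher and 1 lower. MYB75, an activator of anthocyanin genes, was at 30.7, 23.8 and 31.0 CPM in OX at 1.5 h and 0 to 1.34 CPM in dark OX, against 0.297 to 0.395 CPM in hy5 at 1.5 h and 0.0768 to 0.182 CPM in dark hy5. MYB12, an activator of flavonol genes, was at 15.3, 12.5 and 11.2 CPM in OX at 1.5 h and 0 to 0.4 CPM in dark OX, against 0.247 to 0.339 CPM in hy5 at 1.5 h and 0.0909 to 0.332 CPM in dark hy5. Both were near the floor of 3 reads everywhere but in lit OX, so their interactions of 3.96 and 3.5 depend on the pseudocount. In lit Col MYB12 was at 4.57 to 7.50 CPM, and its response in OX exceeded that in Col by 0.89 (adjusted p = 0.028). MYBL2, a repressor of flavonoid genes, had the opposite sign, with 14.6, 22.2 and 15.9 CPM in OX at 1.5 h and 34.3 to 40.9 CPM in dark OX, against 30.7 to 40.5 CPM in hy5 at 1.5 h and 29.5 to 33.8 CPM in dark hy5. Lit OX lay below all other groups (interaction -1.25 ± 0.23, adjusted p = 0.00029 by limma). Dark OX also lay above dark hy5 without overlap, a difference that was not called. With genes under a mean of 5 CPM left out, 2 regulators were called higher in place of 7. KAT5, a peroxisomal thiolase of fatty acid breakdown outside the list, had one of the 15 largest values, 4.33, with 80.3 to 91.6 CPM in OX at 1.5 h and 1.11 to 1.71 CPM in dark OX, against 1.78 to 2.88 CPM in hy5 at 1.5 h and 0.455 to 1.33 CPM in dark hy5.

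**Figure D2:**
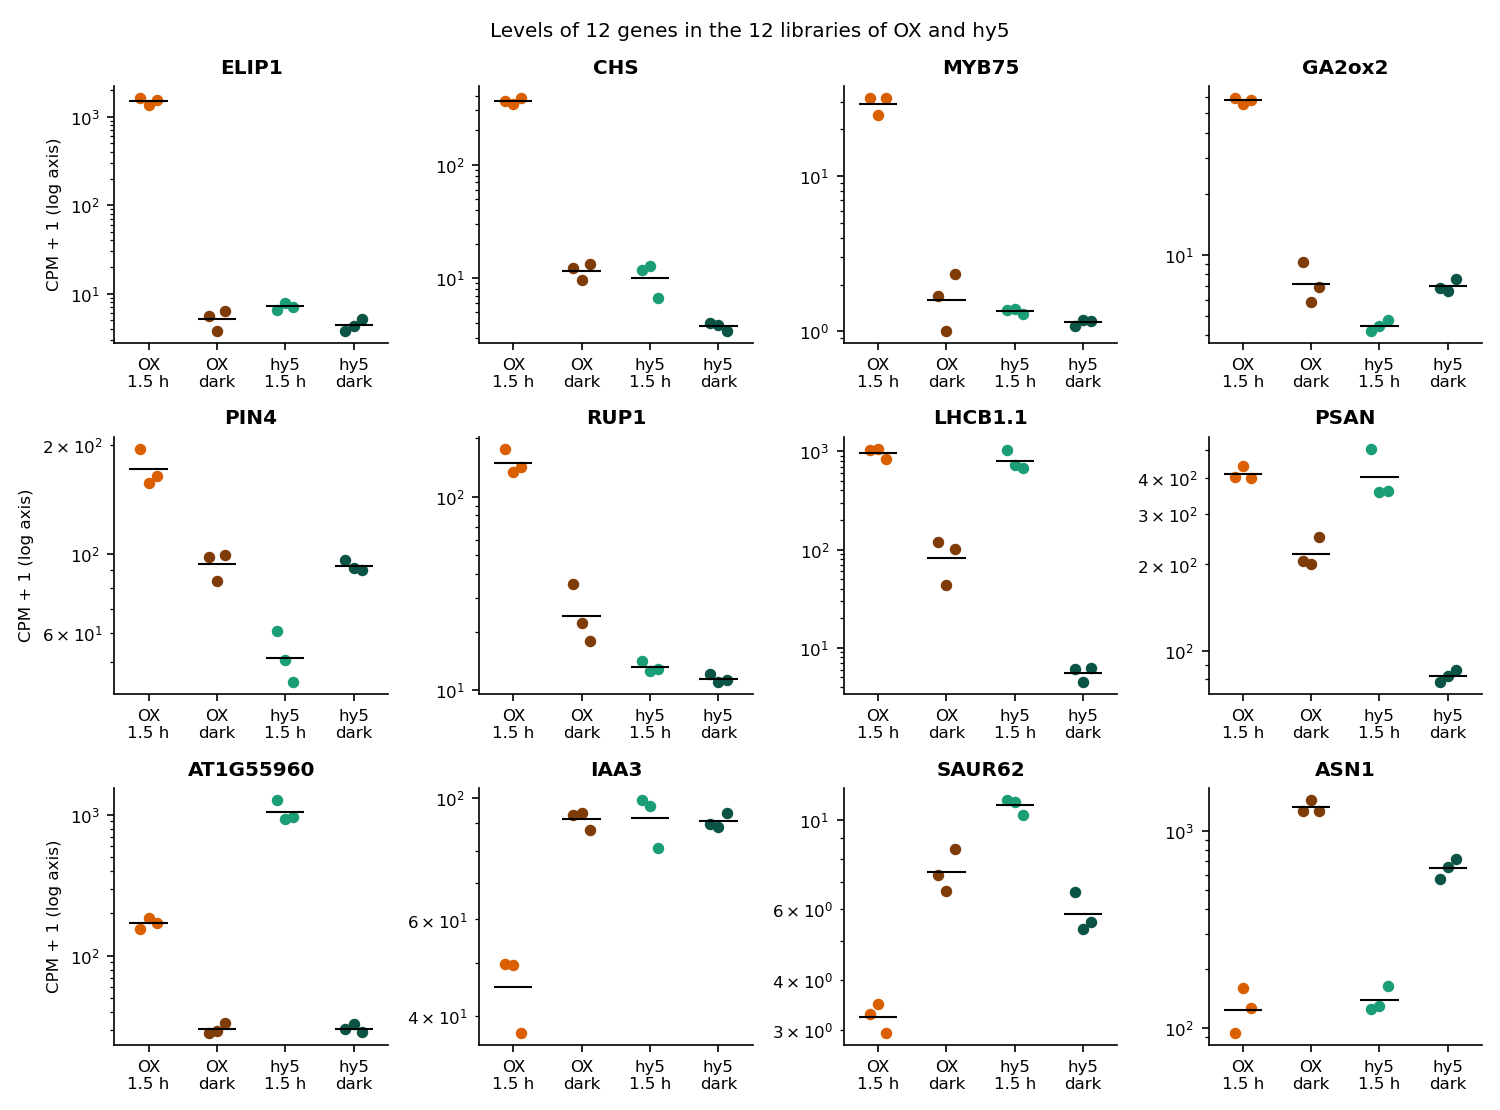
Level of 12 genes in the 12 libraries of OX and hy5, as CPM + 1 on a log axis, with each point a library and each line the mean of the logs in a group of 3. ELIP1, CHS, MYB75, GA2ox2, PIN4 and RUP1 are highest in lit OX, LHCB1.1 and PSAN are higher in dark OX than in dark hy5, AT1G55960 and SAUR62 are highest in lit hy5, IAA3 is lowest in lit OX and ASN1 is highest in dark OX.

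Gibberellin promotes elongation and is inactivated by the GA2ox enzymes. Of 26 genes of gibberellin and brassinosteroid 7 were higher and 3 lower, and the 4 largest values were GA2ox1 (3.73), GA2ox2 (3.66), GA3ox2 (2.82) and GA2ox8 (2.58). The call of GA3ox2, a gibberellin-activating enzyme, was lost with edgeR and DESeq2. GA2ox1 was at 26.1, 34.0 and 33.1 CPM in OX at 1.5 h and 0.263 to 1.23 CPM in dark OX, against 0.565 to 1.14 CPM in hy5 at 1.5 h and 0.166 to 0.545 CPM in dark hy5. GA2ox2 was at 58.7, 54.9 and 57.0 CPM in OX at 1.5 h and 8.20, 4.86 and 5.91 CPM in dark OX, against 3.18, 3.44 and 3.76 CPM in hy5 at 1.5 h and 5.84, 5.64 and 6.55 CPM in dark hy5. Here light raised the level 8.99-fold in OX and lowered it to 0.58 of the dark level in hy5, both called, and the dark groups overlap. The gibberellin receptor GID1B was higher by 1.00, and the DELLA repressor RGA was lower (-0.42). BAS1, which inactivates brassinosteroids, was lower (-1.05).

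Among genes of auxin synthesis, transport and response more were lower than higher. Of 37 measured 17 were lower and 4 higher, with a median of -0.65, and at 1.5 h 22 were lower in OX than in hy5 (all genes, 12.6%) and 4 higher (12.6%), while in the dark 2 were lower (6.76%) and 6 higher (6.72%). For 13 of the 17 the difference was called at 1.5 h only, as it was for 61.7% of all lower genes. IAA6, an Aux/IAA repressor that auxin itself induces, was at 3.88, 3.1 and 2.27 CPM in OX at 1.5 h and 11.7 to 16.2 CPM in dark OX, against 9.24 to 12.7 CPM in hy5 at 1.5 h and 14.5 to 17.1 CPM in dark hy5. IAA19, of the same family, was at 35.2, 22.9 and 14.1 CPM in OX at 1.5 h and 94.5 to 117 CPM in dark OX, against 58.1 to 76.2 CPM in hy5 at 1.5 h and 123 to 133 CPM in dark hy5. For both genes light lowered the level in both genotypes, further in OX (interactions -1.49 and -1.2). IAA3 fell in OX and was not called in hy5, with 48.8, 48.5 and 36.1 CPM in OX at 1.5 h and 86.6 to 92.9 CPM in dark OX, against 80.1 to 98.5 CPM in hy5 at 1.5 h and 87.5 to 93.0 CPM in dark hy5. Small auxin up RNAs (SAURs), which promote cell expansion, included SAUR63, SAUR9 and SAUR20 with -1.61, -1.43 and -1.35, and outside the list SAUR62 with -2.10. SAUR62 was at 2.29, 2.48 and 1.94 CPM in OX at 1.5 h and 5.65 to 7.47 CPM in dark OX, against 9.29 to 10.2 CPM in hy5 at 1.5 h and 4.36 to 5.61 CPM in dark hy5, thus lower with light in OX and higher with light in hy5. SAUR62 and its neighbours share sequence and reads may be split among them. The 4 higher genes were the efflux carrier PIN4 (1.73), the auxin-conjugating enzymes GH3.6 (1.21) and GH3.17 (0.78), and IAA14 (0.82). PIN4 was at 195, 156 and 163 CPM in OX at 1.5 h and 82.7 to 98.0 CPM in dark OX, against 42.9 to 59.8 CPM in hy5 at 1.5 h and 88.8 to 94.8 CPM in dark hy5, with overlap in the dark alone. PIN3 and PIN7 were not called (-0.14 and 0.14).

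Genes of wall loosening split evenly, 4 higher and 4 lower of 23. EXPA1, an expansin, rose in both genotypes and more in OX (interaction 1.56), with 284, 289 and 322 CPM in OX at 1.5 h and 36.9 to 50.5 CPM in dark OX, against 113 to 139 CPM in hy5 at 1.5 h and 51.5 to 57.4 CPM in dark hy5. XTH33, a xyloglucan-remodelling enzyme, had 2.98, 1.71 and 1.3 CPM in OX at 1.5 h and 12.5 to 14.0 CPM in dark OX, against 13.9 to 18.3 CPM in hy5 at 1.5 h and 18.9 to 20.7 CPM in dark hy5, and its interaction was -1.99. The counts of this list moved to 2 lower genes without OX at 1.5 h replicate 3, hy5 at 1.5 h replicate 2, dark OX replicate 3 or any dark hy5 library, and to 2 higher ones without hy5 at 1.5 h replicate 3.

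For photosynthesis genes the called differences lay mostly in the dark. The light-harvesting antenna proteins bind chlorophyll and are classic light-induced genes, and all 18 measured rose with light in hy5 (all genes, 16.4%) and 14 in OX (23.6%). Of the 18, 10 were lower in the interaction and 1 higher, with a median of -0.80, and all 10 were higher in OX than in hy5 in the dark and not called at 1.5 h. That pattern held for 20.8% of all lower genes. Summed over the list, the level was 21059 to 26734 CPM in OX at 1.5 h and 9071 to 14471 CPM in dark OX, against 19916 to 26356 CPM in hy5 at 1.5 h and 5541 to 7049 CPM in dark hy5. The sums overlap in light and are apart in the dark. LHCB1.1 was at 1027, 1065 and 835 CPM in OX at 1.5 h and 119, 43.1 and 101 CPM in dark OX, against 1045, 719 and 675 CPM in hy5 at 1.5 h and 5.14, 3.45 and 5.22 CPM in dark hy5. Dark OX was 19-fold above dark hy5, and lit OX 1.2-fold above lit hy5 with overlap, so the interaction was -3.59 ± 0.38 (adjusted p = 4.7e-08). LHCB1.4 was at 297, 231 and 174 CPM in OX at 1.5 h and 260, 69.4 and 178 CPM in dark OX, against 196, 98.1 and 89.1 CPM in hy5 at 1.5 h and 1.61, 1.27 and 1.41 CPM in dark hy5. Its light and dark libraries overlap in OX, where no response was called (0.63, adjusted p = 0.24), while hy5 rose by 5.64. Since LHCB1 genes are near copies of each other, how reads were divided among them is uncertain. Dark OX replicate 2 was the lowest dark OX library in each of LHCB1.1, LHCB1.2, LHCB1.4 and LHCA1. The lower calls of the list numbered 6 without dark OX replicate 3 or without hy5 at 1.5 h replicate 1. The 1 higher call, LHCB4.3 (0.72, adjusted p = 0.044), was lost without any of 9 libraries.

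Subunits of the photosystems, electron transport and ATP synthase were also raised in dark OX. Of 27, 9 were lower and none higher, with a median of -0.35, and 21 were higher in OX in the dark (all genes, 6.72%) while 5 were higher and 1 lower at 1.5 h (12.6% each). PSAN, a subunit of photosystem I, was at 401, 438 and 397 CPM in OX at 1.5 h and 205, 199 and 247 CPM in dark OX, against 503, 355 and 359 CPM in hy5 at 1.5 h and 77.1, 81.0 and 85.1 CPM in dark hy5. The light libraries overlap and the dark ones do not (interaction -1.36 ± 0.21). PSBO2, PSAK and PSAH2 had -1.19, -1.09 and -1.01. Without hy5 at 1.5 h replicate 1 the list had 5 lower calls. In carbon fixation 4 of 15 genes were lower, among them GAPA2 (-1.05) and RCA, Rubisco activase (-0.88), and the small Rubisco subunits RBCS1A, RBCS1B, RBCS2B and RBCS3B were not called (0.26, -0.12, 0.27 and -0.03).

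**Figure D3:**
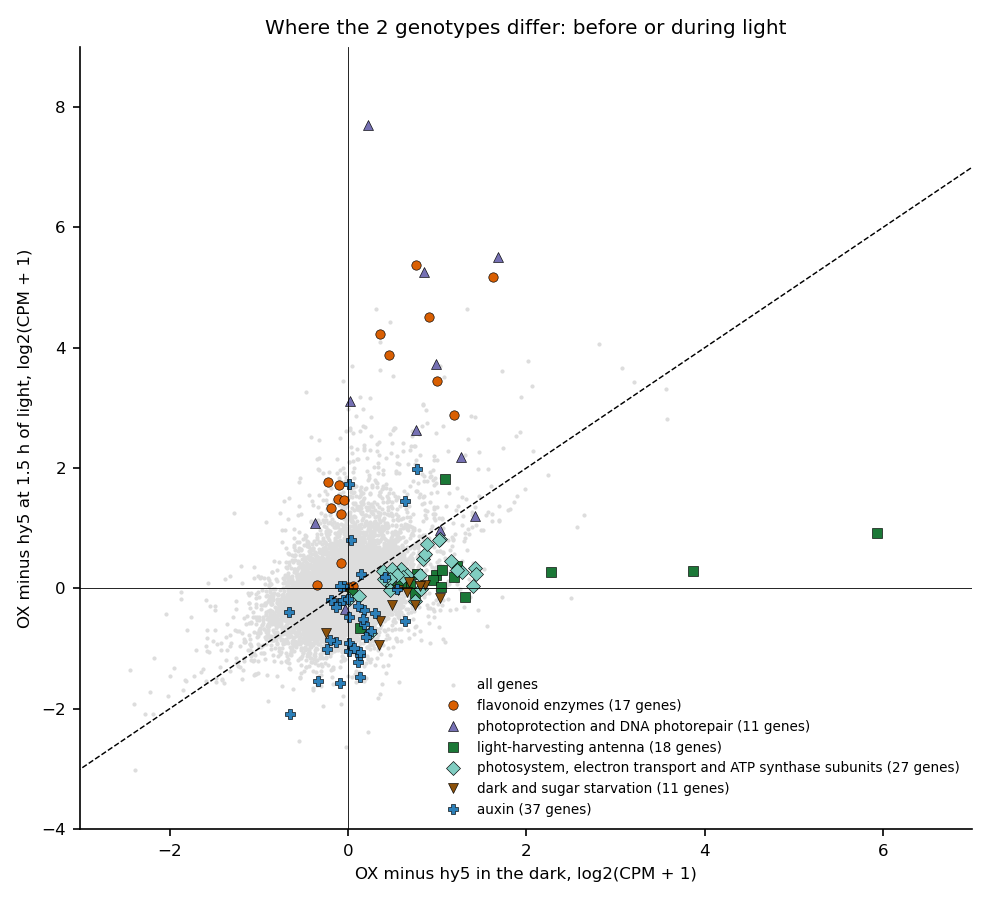
Difference of OX minus hy5 at 1.5 h (vertical axis) against that in the dark (horizontal axis), on log2(CPM + 1), for all genes in grey and 6 gene lists in colour, with a dashed line of equal differences. Most flavonoid and photoprotection genes lie above the line, most antenna, photosystem and starvation genes lie below it to the right of 0, and HY5 and QQS lie outside the axes.

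In chlorophyll synthesis 5 of 23 genes were lower and none higher. CAO, which makes chlorophyll b, was at 206, 258 and 276 CPM in OX at 1.5 h and 78.9 to 91.3 CPM in dark OX, against 316 to 344 CPM in hy5 at 1.5 h and 51.1 to 53.4 CPM in dark hy5. OX was above hy5 in the dark and below it in light without overlap (interaction -1.08, adjusted p = 3.9e-07). HEMA1, the glutamyl-tRNA reductase at the entry of the pathway, had -0.78. The list had 3 lower calls without OX at 1.5 h replicate 2 or hy5 at 1.5 h replicate 2. GLK2, a transcription factor of chloroplast genes, was lower (-1.14), with 177, 118 and 115 CPM in OX at 1.5 h and 44.7 to 66.6 CPM in dark OX, against 220 to 282 CPM in hy5 at 1.5 h and 40.1 to 43.7 CPM in dark hy5. Its paralog GLK1 was not called (-0.26). In carotenoid synthesis 4 of 9 genes were higher and none lower. BCH1, a beta-carotene hydroxylase of the xanthophyll branch, was at 350, 367 and 345 CPM in OX at 1.5 h and 55.3 to 65.2 CPM in dark OX, against 100 to 111 CPM in hy5 at 1.5 h and 64.7 to 77.2 CPM in dark hy5, an interaction of 1.96 ± 0.13.

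Some of the lowest genes rose with light in hy5 and rose less, or were not called, in OX. AT1G55960, annotated as a polyketide cyclase and lipid transport family protein, was at 153, 185 and 171 CPM in OX at 1.5 h and 27.2 to 32.2 CPM in dark OX, against 1281, 937 and 966 CPM in hy5 at 1.5 h and 27.7 to 31.7 CPM in dark hy5. The dark groups overlap, and light raised the level 5.80-fold in OX and 35.9-fold in hy5 (interaction -2.61 ± 0.18, adjusted p = 7.9e-12). Col was between them in light, at 346, 302 and 238 CPM. In the authors' deposited table its log2 ratio of OX over hy5 is -2.65 in light and -0.02 in the dark. NCED4, a carotenoid-cleaving dioxygenase, was at 5.34, 6.90 and 5.02 CPM in OX at 1.5 h and 5.35 to 8.5 CPM in dark OX, against 42.5, 26.3 and 35.1 CPM in hy5 at 1.5 h and 5.91 to 6.30 CPM in dark hy5. Lit hy5 alone stood apart, and the value was -2.60. FRO7, a ferric reductase of the chloroplast, rose in both genotypes, with 10.1 to 19.9 CPM in OX at 1.5 h and 2.2 to 4.99 CPM in dark OX, against 24.4 to 32.3 CPM in hy5 at 1.5 h and 1.24 to 1.64 CPM in dark hy5.

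Light signalling regulators divided into both directions, 6 higher and 8 lower of 34. The largest 2 were RUP1 (2.44) and RUP2 (1.82), repressors of the UV-B photoreceptor UVR8, which was itself not called (0.00). RUP1 was at 176, 134 and 141 CPM in OX at 1.5 h and 34.4, 21.3 and 17.1 CPM in dark OX, against 13.2, 11.6 and 11.8 CPM in hy5 at 1.5 h and 11.2, 10 and 10.4 CPM in dark hy5. In Col, RUP1 was at 153, 162 and 177 CPM at 1.5 h and at 6.92 to 9.30 CPM in the dark, so dark OX lay above dark Col and the response of OX was below that of Col (-1.59, adjusted p = 0.00018). Among photoreceptors PHYB (0.87) and PHOT2 (0.68) were higher and CRY1 (-0.57) lower. COP1 was higher by 0.46, a call lost without OX at 1.5 h replicate 3. HYH, the closest relative of HY5, was at 112, 125 and 124 CPM in OX at 1.5 h and 13.6 to 16.1 CPM in dark OX, against 15.2 to 17.7 CPM in hy5 at 1.5 h and 0.154 to 0.727 CPM in dark hy5. It rose with light in both, and dark OX stood near lit hy5. Its interaction was -0.76, and -2.55 with edgeR and -2.60 with DESeq2, and the call was lost without hy5 at 1.5 h replicate 1, dark hy5 replicate 1 or dark hy5 replicate 3. Of 15 B-box genes 4 were higher and 1, BBX25 (-1.33), lower. For BBX30, BBX16 and BBX31 the size or sign depends on the scale. With single libraries left out their interactions lay between -0.14 and 0.11, 0.54 and 0.93, and -0.31 and 0.09. The authors' deposited log2 ratios of OX over hy5 in the dark and in light are 6.19 and 0.75, 4.16 and 1.05, and 2.93 and 0.74. BBX22, a partner of HY5, was at 44.8, 53.0 and 51.1 CPM in OX at 1.5 h and 10 to 12.5 CPM in dark OX, against 11.9 to 14.4 CPM in hy5 at 1.5 h and 10.9 to 12.1 CPM in dark hy5 (1.88 ± 0.19, adjusted p = 1.9e-08). The value of BBX32, 0.92, turned to -0.22 with edgeR and -0.37 with DESeq2; its dark libraries held 0 to 0.223 CPM. The call of BBX23 (0.94) was lost without any of 6 libraries. In the clock 4 genes were higher, among them GI (0.97), and 4 lower, among them the Myb-like factors RVE1 (-1.72) and RVE2 (-1.71), of 22. RVE1 was at 54.7, 79.0 and 98.2 CPM in OX at 1.5 h and 51.9 to 54.2 CPM in dark OX, against 157, 230 and 292 CPM in hy5 at 1.5 h and 44.5 to 51.1 CPM in dark hy5.

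Genes of dark and sugar starvation fell with light in both genotypes, all 11 in OX (all genes, 22.6%) and all 11 in hy5 (15.7%). Of these 6 were lower in the interaction (all genes, 4.73%), and in the dark 8 were higher in OX than in hy5 (6.72%). ASN1, asparagine synthetase, was at 92.9, 159 and 125 CPM in OX at 1.5 h and 1267, 1439 and 1266 CPM in dark OX, against 123, 128 and 162 CPM in hy5 at 1.5 h and 567, 655 and 722 CPM in dark hy5. Light levels overlap and dark levels do not (interaction -1.19 ± 0.30, adjusted p = 0.0072). DIN10, of the raffinose synthase family, had -1.28. The count was 3 without OX at 1.5 h replicate 1 or hy5 at 1.5 h replicate 3, and 10 in a fit of the compared groups with replicate number as a block.

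Lists that mark tissues and handling are given beside the share of all genes called in either direction, 10.7%. Root hair markers had 0 calls of 9, with a summed level of 8.91 to 11.9 CPM in OX at 1.5 h and 6.80 to 10.9 CPM in dark OX, against 6.18 to 17.7 CPM in hy5 at 1.5 h and 8.54 to 13.5 CPM in dark hy5. Among 11 markers of endodermis, vasculature, epidermis and stomata, SCR alone was called (-0.49). Of 7 genes of seed storage and oil breakdown 2 were lower, 1 of them the storage protein gene CRU3 (-1.27, at 0.166 to 2.79 CPM in the 12 libraries), and 1 when most single libraries were left out. The summed level of these 7 was 2788 to 3132 CPM in OX at 1.5 h and 5854 to 6858 CPM in dark OX, against 3847 to 5346 CPM in hy5 at 1.5 h and 7210 to 8113 CPM in dark hy5. Of 9 heat shock genes 8 were lower in OX than in hy5 in the dark (all genes, 6.76%) and 5 at 1.5 h (12.6%), with summed levels of 177 to 280 CPM in OX at 1.5 h and 147 to 158 CPM in dark OX, against 273 to 402 CPM in hy5 at 1.5 h and 304 to 470 CPM in dark hy5. HSFA2 was their only interaction call (1.52), and it was lost without OX at 1.5 h replicate 2, dark OX replicate 2, hy5 at 1.5 h replicate 3 or dark hy5 replicate 3. Of 14 genes of wounding, touch, defence and oxidative stress 2 were higher, JAZ1 (1.51) and ZAT12 (1.18). The call of ZAT12 was lost without OX at 1.5 h replicate 2, hy5 at 1.5 h replicate 3 or dark hy5 replicate 3. The part of these differences in the other lists was not tested. In nitrogen and sulphur assimilation APR1 alone of 9 was called (0.93), lost without OX at 1.5 h replicate 1 or dark hy5 replicate 3, and of 5 genes of ethylene and the apical hook none was.

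**Figure D4:**
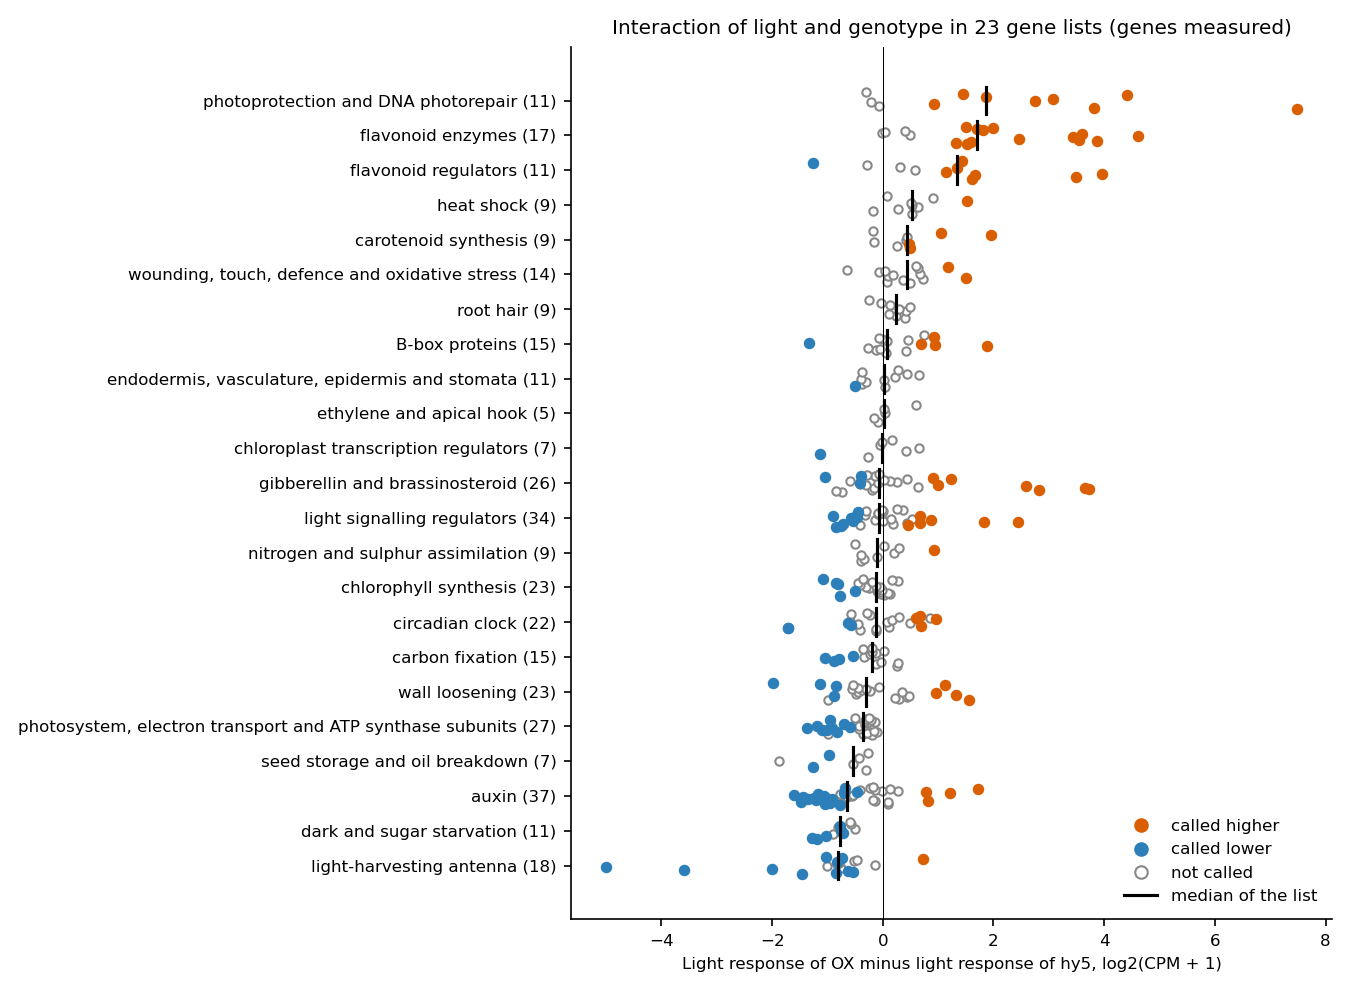
Interaction of each measured gene in 23 lists, as the light response of OX minus that of hy5 on log2(CPM + 1), sorted by the list's median (black bar). Photoprotection, flavonoid enzymes and flavonoid regulators have the highest medians, at 1.87, 1.70 and 1.34, and the antenna and starvation lists the lowest, at -0.80 and -0.77.

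The response of OX was also set directly against that of Col, a contrast that uses no hy5 level and shares the OX libraries with the interaction. It called 764 genes, 3.88% of all, 378 higher (1.92%) and 386 lower (1.96%), with the spread estimated over all 32 libraries. Fitted on the compared groups alone it called 494. Of the 17 flavonoid enzymes 4 had a higher response in OX than in Col and 1 a lower one. Of the photoprotection genes none of 11 was higher and 3 were lower. The antenna list had 8 lower of 18 and the starvation list 9 lower of 11. The interaction of Col against hy5, computed in the same way, called 571 genes higher and 219 lower of 19685. It called none of the 18 antenna genes, the 27 photosystem, electron transport and ATP synthase genes and the 11 starvation genes. It called 13 of 17 flavonoid enzymes and 8 of 11 photoprotection genes higher. GPT2, a glucose 6-phosphate translocator of the plastid, was at 8.11, 8.76 and 9.64 CPM in OX at 1.5 h and 1.70 to 3.29 CPM in dark OX, against 1.38 to 3.65 CPM in Col at 1.5 h and 3.70 to 4.29 CPM in dark Col. It rose with light in OX and fell in Col and hy5 (1.46, -0.50 and -0.87); light responses were called for 35.8% of all genes in Col. AT4G12130, of the glycine cleavage T-protein family, was at 20.4 to 23.7 CPM in OX at 1.5 h and 3.02 to 5.20 CPM in dark OX, against 6.66 to 7.57 CPM in Col at 1.5 h and 4.3 to 5.87 CPM in dark Col. Its response was called in OX and hy5 and not in Col (2.27, 0.55 and 0.40). RPT2, a signalling partner of phototropins, was at 744 to 834 CPM in OX at 1.5 h and 151 to 158 CPM in dark OX, against 806 to 889 CPM in Col at 1.5 h and 32.4 to 36.2 CPM in dark Col. Light levels overlap, dark OX was above dark Col, and the responses were 2.36 in OX, 4.58 in Col and 3.78 in hy5.

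**Figure D5:**
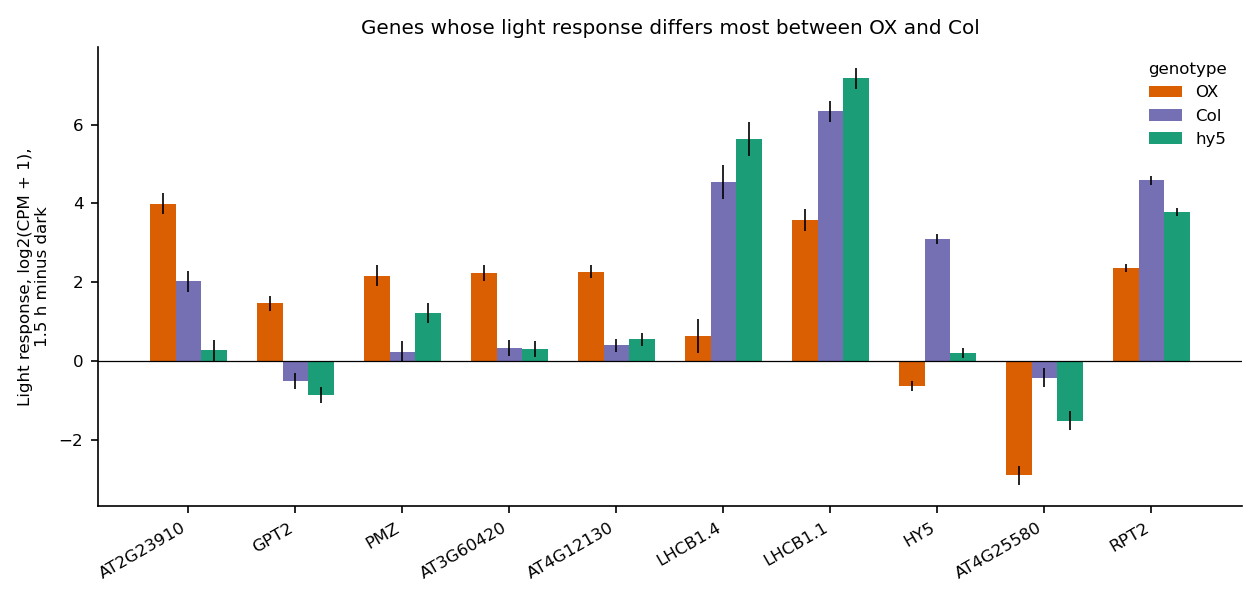
Light response, as 1.5 h minus dark on log2(CPM + 1), of the 5 genes whose response in OX exceeded that in Col most and the 5 where it fell short most, in OX, Col and hy5. Bars are estimates from 3 libraries a group and lines their SE; GPT2 is above 0 in OX alone, and HY5 is above 0 in Col and below 0 in OX.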

How the data were processed

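The authors deposited CPM per gene scaled by effective library size, treated here as a normalized signal since its column sums differ (972073 to 1050555 in the 12 libraries), and a table of their log2 fold changes. The submitters' processing notes name the build TAIR10 and, in no stated order, edgeR 3.16.5, HTSeq 0.6.0, TopHat2 2.0.11, CASAVA 1.8.2, SAMtools 0.1.19.0 and Bowtie2 2.2.2.0; per the labels' protocols, stranded polyA libraries were made from 0.5 µg of total RNA. The plan had assumed plain CPM, and its test was kept.

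Python 3.11.15 and R 4.3.3 were used. Values were transformed to log2(CPM + 1) and fitted with limma 3.58.1 with an intensity trend, with 1 mean per group over 32 libraries in 12 groups, Benjamini-Hochberg adjustment over 19685 genes and a call at 0.05 without fold limit. Whole reads were recovered from the steps of each column within 0.01 reads and used for depth and for edgeR 4.0.16 and DESeq2 1.42.0. In 2 columns the step was near 0.1, and edgeR was also run without them. Fits were tested on simulated data. The variance between replicates was 3.24 to 16.8 times that of counting, so none was merged. Other alternatives were another pseudocount, filter, fold limit, scaling or set of groups, a replicate block, and each library left out.

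The genes and the 23 lists (380 genes, 370 measured) were chosen with earlier results of these data known. Named genes are HY5, light signalling and B-box genes, the 6 called list members with the smallest adjusted p, the 15 highest and 15 lowest interaction genes whose highest group mean reached 5 CPM, and the 5 highest and 5 lowest against Col. Other list members named beside them, were named after their values were seen. In RefSeq's TAIR10.1 annotation 19582 identifiers were found, 103 were not, and 8623 had a symbol. Figures were drawn with matplotlib 3.10.9.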

Additional observations from a re-analysis of the deposited data

Results flagged for a closer look

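Light responses of opposite sign, each called in its own genotype, marked 59 genes that rose in OX and fell in hy5, 57 of them with a group mean of 5 CPM or more, and 38 that fell in OX and rose in hy5, 35 of them above that level. The difference of the responses is the interaction itself, tested with limma over all genes. The 5 largest of each kind are given here.

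GA2ox2 had 56.9 ± 1.9 CPM in OX at 1.5 h and 6.32 ± 1.7 in dark OX, against 3.46 ± 0.29 in hy5 at 1.5 h and 6.01 ± 0.48 in dark hy5 (SD, n = 3 each), and an interaction of 3.66. AT3G23510, a cyclopropane fatty acid synthase family protein, had 157 ± 9.7 CPM in OX at 1.5 h and 36 ± 8.5 in dark OX, against 11.2 ± 0.21 in hy5 at 1.5 h and 16.8 ± 1.6 in dark hy5 (SD, n = 3 each), and an interaction of 2.66. GPT2 had 8.84 ± 0.76 CPM in OX at 1.5 h and 2.63 ± 0.83 in dark OX, against 1.88 ± 0.29 in hy5 at 1.5 h and 4.25 ± 0.58 in dark hy5 (SD, n = 3 each), and an interaction of 2.33. AT5G17700, a MATE efflux family protein, had 84.3 ± 9.2 CPM in OX at 1.5 h and 42.3 ± 2.4 in dark OX, against 15.6 ± 1.1 in hy5 at 1.5 h and 41.2 ± 1.2 in dark hy5 (SD, n = 3 each), and an interaction of 2.32. KAI2, the receptor of karrikins, had 91.5 ± 12 CPM in OX at 1.5 h and 32.6 ± 2 in dark OX, against 10.1 ± 1.7 in hy5 at 1.5 h and 17.7 ± 1.7 in dark hy5 (SD, n = 3 each), and an interaction of 2.22. In these 5, light raised the level in OX and lowered it in hy5.

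SAUR62 had 2.24 ± 0.27 CPM in OX at 1.5 h and 6.47 ± 0.92 in dark OX, against 9.88 ± 0.51 in hy5 at 1.5 h and 4.84 ± 0.67 in dark hy5 (SD, n = 3 each), and an interaction of -2.10. MAKR6, a membrane-associated kinase regulator, had 3.54 ± 0.84 CPM in OX at 1.5 h and 7.46 ± 0.3 in dark OX, against 9.94 ± 0.4 in hy5 at 1.5 h and 6.44 ± 0.36 in dark hy5 (SD, n = 3 each), and an interaction of -1.47. AT3G62570, a tetratricopeptide repeat protein, had 8.78 ± 1.3 CPM in OX at 1.5 h and 19.8 ± 1.6 in dark OX, against 22 ± 1.5 in hy5 at 1.5 h and 17.1 ± 1.5 in dark hy5 (SD, n = 3 each), and an interaction of -1.44. BEH1, a relative of the brassinosteroid factors BES1 and BZR1, had 8.13 ± 1.2 CPM in OX at 1.5 h and 12.7 ± 1.6 in dark OX, against 17.7 ± 3.4 in hy5 at 1.5 h and 9.78 ± 0.66 in dark hy5 (SD, n = 3 each), and an interaction of -1.37. SULTR3;1, a sulfate transporter, had 16.2 ± 2.5 CPM in OX at 1.5 h and 22.3 ± 3 in dark OX, against 51.6 ± 7.3 in hy5 at 1.5 h and 27.5 ± 1.5 in dark hy5 (SD, n = 3 each), and an interaction of -1.32. In these 5, light lowered the level in OX and raised it in hy5. Groups of 3 were not tested for single outlying libraries.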

How the results depend on the processing

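The interaction was called for 1648 to 2171 genes when single libraries were left out, against 2110. It was called for 1890 in the compared groups alone, and for 1902 with edgeR and 2086 with DESeq2 on recovered reads. Against 1178 higher and 932 lower genes, edgeR gave 1027 and 875 and DESeq2 1048 and 1038. The excess of higher over lower genes thus depended on the method. A limit of at least 2-fold left 646 genes of the interaction, 461 higher and 185 lower, 2136 and 1278 of the light responses of OX and hy5, 279 and 780 of the differences of OX and hy5 in the dark and at 1.5 h, and 235 of the difference of OX from Col. In the dark the compared groups alone gave 1648 calls and single libraries left out 1496 to 3040. Against Col the compared groups alone gave 494 calls, edgeR without the 2 columns of a step near 0.1 gave 491, and single libraries left out gave 517 to 911. Same-numbered libraries of OX deviated together by 0.363, 0.124 and 0.0942, and no comparison of the 4 groups had all 3 correlations above 0.1. Outside the 4 groups, those of dark hy5 and dark Col deviated together by 0.172, 0.215 and 0.306. Whether the numbers pair libraries was not tested, and the main fit used no block. With the replicate block the interaction had 1954 calls and the dark difference 1410. The cause of these shifts was not tested.

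Of 120 named genes called in the interaction 95 kept the call in every setting that gave them an adjusted p-value, and 25 lost it in at least 1. The 2-fold limit was not applied to single genes, and genes under a mean of 5 CPM had no value with that filter. Over 175 named gene results 3523 of 3645 comparisons kept the side of the threshold. Direction was required to hold only where a call was made in either fit. AT3G52740 turned to -0.95 with edgeR, -0.14 with DESeq2 and -0.87 with edgeR without the 2 columns, and BBX32 to -0.22, -0.37 and -0.84. Dark hy5 held 0 CPM of AT3G52740 and at most 0.0909 CPM of BBX32, so these values depend on the pseudocount. Depth limits what can be said of genes near 3 reads, most in dark OX.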
